A study of Mus musculus with 24 samples.

Results

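The mammary luminal and basal identity genes examined here were 10 genes taken as a named list: the keratins Krt8, Krt18, Krt5 and Krt14, the transcription factors Elf5, Gata3, Foxa1 and Trp63, and the hormone receptors Esr1 and Pgr. They are 10 of the 21755 protein-coding genes of GENCODE vM21 on chromosomes 1 to 19 and X. For each gene, the promoter was the stretch reaching 1 kb to each side of its annotated start sites of transcription (TSS), and H3K9ac peaks in the promoter and in the gene body were read from 12 peak lists. H3K9ac, the acetylation of lysine 9 of histone H3, is found at active promoters and enhancers. It was profiled by ChIPmentation, in which chromatin captured by the antibody is tagged for sequencing with the Tn5 transposase, in spheroids of 4T1, a BALB/c mouse mammary carcinoma line that the study's methods describe as lacking oestrogen receptor, progesterone receptor and HER2.

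The lists fell into 4 groups of 3 replicates, all collected at day 5. Scramble spheroids, the control, were grown with 75 µM palmitate, and the study's methods give a non-targeting guide as the control guide. CPT1a knockout spheroids lacked the carnitine palmitoyltransferase through which mitochondria take up long-chain fatty acids, and were grown with 75 µM palmitate. CPT1a knockout spheroids with acetate carried the same genotype and were grown with 5 mM acetate, and while their labels name acetate alone, the study's text places palmitate in the medium of CPT1a-deficient spheroids both with and without acetate. KAT2a knockout spheroids lacked a histone acetyltransferase and were grown with 75 µM palmitate. Per the study's methods, all lines carried a doxycycline-inducible Cas9 and were puromycin-selected populations. Which guide a line carried is not in the labels, nor whether replicates were separate cultures, so that p-values measure the spread between these samples, which may be technical. The comparisons ask how promoter H3K9ac differs after the loss of either protein, and how acetate changes it after the loss of CPT1a.

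The mammary gland holds an inner luminal layer and an outer basal layer. Luminal cells carry the paired keratins KRT8 and KRT18 and depend on GATA3, with ELF5 in milk-producing progenitors and FOXA1, the oestrogen receptor and the progesterone receptor in hormone-sensing cells. Basal cells carry KRT5 and KRT14 under the control of p63, the product of Trp63, and contract to expel milk.

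A promoter peak was called in all 12 lists for 5 of the 10 genes, Krt8, Krt18, Gata3, Esr1 and Foxa1. Krt14 had a peak in 3 of 3 KAT2a knockout lists and in 0 of the other 9. Krt5, Elf5, Pgr and Trp63 had a promoter peak in none. Over all protein-coding genes, 49.5% had a promoter peak in every list and 45.1% in none, so the share of 5 of 10 was close to that of genes at large. By role, 5 of the 7 luminal and receptor genes were called throughout, against 0 of the 3 basal genes. Krt14 belonged to the 5.36% of genes called in 1 to 11 lists. A peak in the 3 scramble lists alone was found for 0.0276% of genes and for no member. Peak lists from a mass of cells do not separate the share of cells that carry the mark from its amount per cell.

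**Figure D1:**
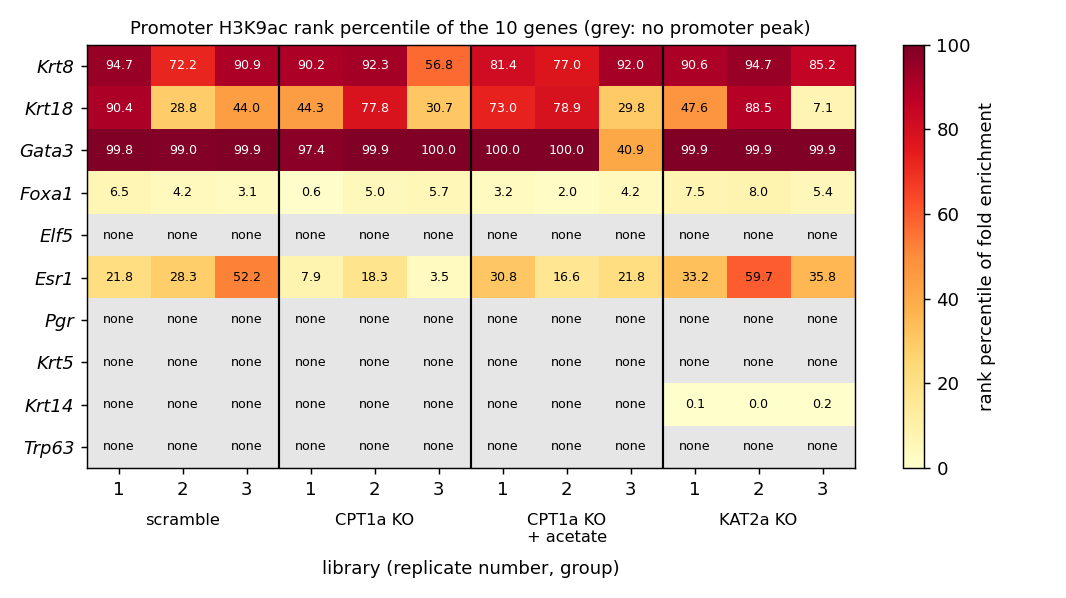
Promoter H3K9ac of the 10 genes (rows) in the 12 libraries (columns, grouped by condition and numbered by replicate). Colour and figures give the rank percentile of the promoter's highest fold enrichment among the 10777 genes called in every list, and grey cells had no promoter peak. Gata3 and Krt8 ranked high, Foxa1 ranked at most at 8.03, and Krt14 was called only in the 3 KAT2a knockout lists, near rank 0.

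Lists held 16212 to 34370 peaks. No read depth was stated. The calling depth, the genome's mean coverage as recovered from the fold and p of the peaks, was 1.87 to 2.52 in scramble and 0.554 to 1.91 in the other 9 lists, and the median fold enrichment of a list was 5.59 to 7.09 in scramble against 8.72 to 13.2 in the others. Depths thus overlapped between groups, acetate replicate 3 lying above scramble replicates 2 and 3, whereas the median enrichments of scramble lay below all others. The labels name no batch, and the part of depth and enrichment in the differences from scramble was not tested. Marker genes of other cell types were read as a check of the label. Of 6 pan-epithelial genes, which included Epcam and Cdh1, 6 had a promoter peak in all 12 lists, and of 6 endothelial genes 0 had one in any list. Of 6 immune genes, Cd68 alone was called, in 2 scramble lists, and Ptprc and Cd3e were at 0. Of 6 fibroblast genes, Pdgfra was called in 12 lists and Col1a1 in 11, while Col1a2, Dcn, Lum and Pdgfrb were called in 0.

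The sequences next to the start sites are shown for the keratins Krt8, Krt18 and Krt5 and for Gata3 and Foxa1, since these promoters ran from always called to never called. They lie upstream of the start sites of RefSeq (GRCm38.p6) and of GENCODE, and capitals mark, on either strand, the letters of the motifs searched, namely TATAAA, known as a core promoter box, CCAAT, bound by NF-Y, GGGCGG, bound by Sp1, CACGTG, an E-box, AGATAA, bound by factors such as Gata3, AGGAAG, bound by ETS factors such as Elf5, and TGTTTAC, bound by forkhead factors such as Foxa1.
Krt8 chr15:102004483-102004592 minus strand: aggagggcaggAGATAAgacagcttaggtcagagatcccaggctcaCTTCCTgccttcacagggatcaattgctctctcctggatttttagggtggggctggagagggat
Krt18 chr15:102027966-102028179 plus strand: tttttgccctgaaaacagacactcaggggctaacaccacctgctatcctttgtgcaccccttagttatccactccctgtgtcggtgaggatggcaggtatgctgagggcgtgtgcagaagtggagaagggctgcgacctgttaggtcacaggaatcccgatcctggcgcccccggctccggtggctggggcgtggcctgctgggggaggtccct
Krt5 chr15:101712906-101713155 minus strand: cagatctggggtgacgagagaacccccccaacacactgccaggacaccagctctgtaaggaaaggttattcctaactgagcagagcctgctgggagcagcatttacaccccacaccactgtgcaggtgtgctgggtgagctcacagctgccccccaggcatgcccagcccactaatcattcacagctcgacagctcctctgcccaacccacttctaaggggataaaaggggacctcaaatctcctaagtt
Gata3 chr2:9878601-9878850 minus strand: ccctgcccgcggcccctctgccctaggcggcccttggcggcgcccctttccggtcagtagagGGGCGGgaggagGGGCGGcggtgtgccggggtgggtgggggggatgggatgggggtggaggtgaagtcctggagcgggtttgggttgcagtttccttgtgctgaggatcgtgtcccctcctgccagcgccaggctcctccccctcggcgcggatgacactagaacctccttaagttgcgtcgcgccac
Foxa1 chr12:57546122-57546361 minus strand: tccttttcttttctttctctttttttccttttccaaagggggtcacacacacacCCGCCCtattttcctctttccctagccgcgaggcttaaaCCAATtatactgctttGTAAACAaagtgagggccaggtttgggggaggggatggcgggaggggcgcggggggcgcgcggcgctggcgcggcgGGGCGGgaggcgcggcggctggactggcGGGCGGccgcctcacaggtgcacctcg

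Motifs were counted in the 250 bases before each start site of RefSeq, of which the Krt8, Krt18 and Foxa1 lines show the part before the GENCODE start. Of the 10 genes, 9 had an entry in the table of promoters; Trp63 did not. The Krt8 window held 1 AGATAA and 1 AGGAAG, which 10.0% and 29.7% of 32609 promoter windows also held. The Gata3 window held 2 and the Foxa1 window 3 copies of GGGCGG, found in 33.0% of windows, and the Foxa1 window also held 1 CCAAT, found in 34.02%, and 1 TGTTTAC, found in 3.19%. In the Krt18 and Krt5 windows none of the 7 motifs was found.

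The density of CpG dinucleotides did not order the members as their peaks did. The ratio of observed to expected CpG was 0.887 at Foxa1, 0.633 at Gata3, 0.527 at Krt18, 0.283 at the first Esr1 start, 0.143 at Krt8 and 0.105 at Krt5. It was 0.325 at Krt14, 0.317 at the second Esr1 start, and 0.0814 and 0.402 at the first and second Elf5 starts. Krt8 and Krt5 thus had similarly few CpGs before their start sites, and only Krt8 was called. The Krt8 summits lay 591 to 823 bp after the start, outside the bases read here. Over the 16428 genes that could be matched, a peak in all 12 lists was found for 12.1% of those with a ratio under 0.4 and for 81.6% of those at 0.6 or more. Krt8 and Esr1 belonged to the former class, and so did Krt14, called in 3 lists, and the uncalled Krt5 and Pgr, the latter with a ratio of 0.341. Elf5, also uncalled, lay between the classes by its higher value. Whether CpG density bears on the calls of the members was not tested.

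Krt8 and Krt18 encode the partner keratins of simple epithelia and lie next to each other on chromosome 15, with 23698 bp between their start sites (Krt8 at 101996698-102004482 on the minus strand and Krt18 at 102028180-102032027 on the plus strand, GRCm38). The Krt8 promoter ranked at 94.7, 72.2 and 90.9 in scramble replicates 1 to 3 and at 90.2, 92.3 and 56.8 in CPT1a knockout. It ranked at 81.4, 77.0 and 92.0 with acetate and at 90.6, 94.7 and 85.2 in KAT2a knockout. All groups overlapped, and the lowest value came from CPT1a knockout replicate 3, the list with the lowest calling depth. The Krt8 summit lay 591 to 823 bp after the start site in all 12 lists, in an intron.

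The Krt18 promoter varied far more between replicates of the same group. It ranked at 90.4, 28.8 and 44.0 in scramble, at 44.3, 77.8 and 30.7 in CPT1a knockout, at 73.0, 78.9 and 29.8 with acetate, and at 47.6, 88.5 and 7.12 in KAT2a knockout. The SD within groups was 24.2 to 40.7 points, and the largest of the 4 differences tested, 9.67 points for acetate against CPT1a knockout, was within it (limma adjusted p = 0.946). A separate peak with its summit at -2424 to -2070 bp from the Krt18 start was called in 11 of 12 lists. In scramble replicate 1 that stretch was joined to the promoter peak, and the whole spanned 6232 bp.

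**Figure D2:**
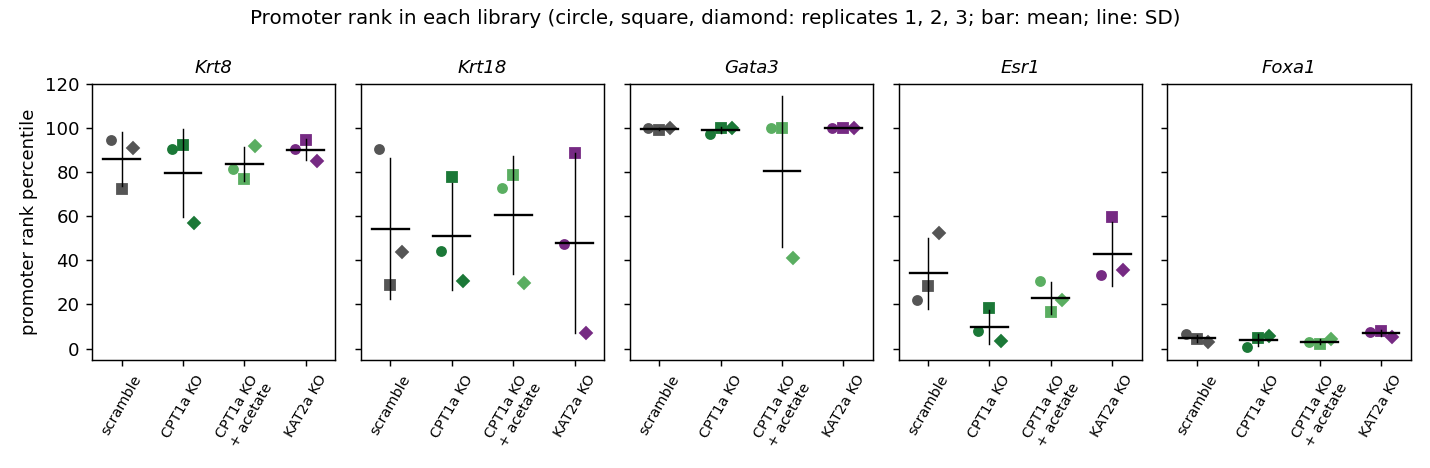
Promoter rank percentile (y axis) of the 5 genes called in all 12 lists, by group (x axis). Symbols are libraries (circle, square and diamond for replicates 1, 2 and 3), bars are group means and lines are the SD of 3 libraries. Krt18 spreads widely within each group, Gata3 has 1 library at 40.9 far below the rest, and the 3 CPT1a knockout values of Esr1 lie below the 3 scramble values.

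Of the basal keratins, Krt5 (chromosome 15, 101707070-101712898, minus strand) had no peak in its promoter, in its body or within 5 kb on either side in any of the 12 lists. Krt14 (chromosome 11, 100203162-100207548, minus strand) was the only basal gene with a promoter peak. Its fold enrichments were 4.40, 3.96 and 4.96 in KAT2a knockout replicates 1 to 3, with a -log10 q of 5.35, 5.31 and 5.15. All were weak: they ranked at 0.0557, 0.0046 and 0.204 against the genes called in every list, and they were 304, 215 and 246 bp wide. Of 21755 genes, 32 showed the same pattern of calls, a share of 0.147%. In lists thinned to an equal calling depth of 0.55, and in lists cut to an equal length of 16201 peaks, Krt14 was called in 0 of 12 libraries.

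The 3 Krt14 peaks did not lie at the same place. Those of replicates 1 and 2 overlapped inside the gene, with summits 1069 and 768 bp after the start of the coding transcript and in an intron, and the peak of replicate 3 had its summit upstream, at -400 bp. No single merged region at a member was called in 3 of 3 KAT2a knockout and 0 of 3 scramble lists, a pattern of 1.17% of merged regions. Within 500 bp of a start site, 2 of the 3 lists kept a call. Replicates 1 and 2 also shared a weak peak further upstream, with summits at -1226 and -1188 bp. The stretch common to the peaks of replicates 1 and 2 and the whole peak of replicate 3 are given on the gene's strand, since they are the only H3K9ac peaks called at a basal keratin promoter.
Krt14 chr11:100206602-100206755 minus strand, replicates 1 and 2: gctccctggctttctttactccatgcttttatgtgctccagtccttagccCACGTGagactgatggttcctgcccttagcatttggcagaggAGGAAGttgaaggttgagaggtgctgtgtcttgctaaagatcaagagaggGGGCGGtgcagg
Krt14 chr11:100207795-100208040 minus strand, replicate 3: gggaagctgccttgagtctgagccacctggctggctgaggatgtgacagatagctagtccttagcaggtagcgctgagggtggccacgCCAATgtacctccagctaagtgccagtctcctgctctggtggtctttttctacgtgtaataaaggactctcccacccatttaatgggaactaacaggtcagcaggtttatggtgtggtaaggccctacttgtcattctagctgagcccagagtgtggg
Both were CpG-poor, with ratios of 0.194 and 0.174. The shared stretch held 1 CACGTG, 1 AGGAAG and 1 GGGCGG on either strand, and the peak of replicate 3 held 1 CCAAT. Related keratin genes lie in the same cluster, and how reads matching several of them were counted is not given in the sources used here.

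Gata3 (chromosome 2, 9857078-9890034, minus strand), the GATA factor that maintains luminal cells, carried the broadest domain among the 10 genes. It ranked at 99.8, 99.0 and 99.9 in scramble, at 97.4, 99.9 and 99.97 in CPT1a knockout, at 99.96, 99.96 and 40.9 with acetate and at 99.9, 99.9 and 99.9 in KAT2a knockout. One library, acetate replicate 3, stood apart. Its fold enrichment at Gata3 was 22.9 against 40.7 to 69.2 in the other 11, while its -log10 p of 184 lay within their range of 113 to 330. Without that library the acetate group differed from scramble by 0.36 points, against -19.3 with it (limma adjusted p = 0.977 and 0.323).

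The Gata3 peaks covered 22490 to 24479 bp (median 23388.5 bp) within chr2:9866375-9891134, from upstream of the first start site into the gene, and so spanned all 6 annotated transcript starts. In 7 of the 12 lists gaps divided this stretch into 2 or 3 peaks. At most 15 peaks of any list were wider than the widest Gata3 peak, and in 3 lists only 1 was. The promoter width, which adds the peaks that touch a promoter window, was 15947 bp in CPT1a knockout replicate 3 and 22811 to 24479 bp elsewhere, because in that list a middle peak touched no window. Neither the width nor the rank of Gata3 passed the test in any comparison, with width differences of -0.22 to 0.19 on the log2 scale.

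**Figure D3:**
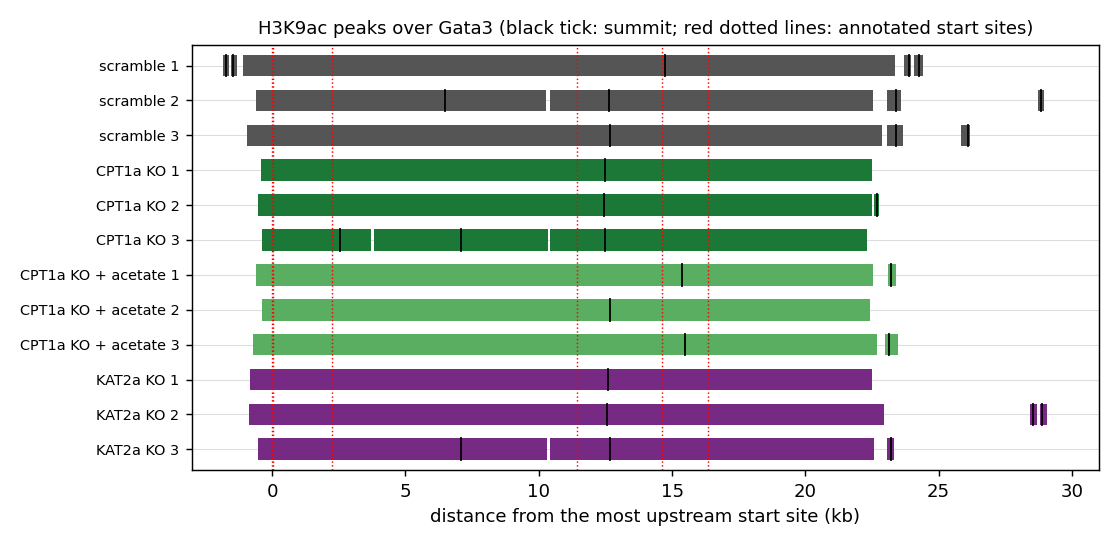
H3K9ac peaks over Gata3 in each of the 12 libraries (rows), drawn to scale against the distance in kb from the most upstream annotated start site, in the direction of transcription. Black ticks are summits and red dotted lines are annotated start sites. The peaks covered 22490 to 24479 bp in all 4 groups, and the gaps that split them in 7 lists were narrow.

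Elf5, the ETS factor of milk-producing luminal progenitors (chromosome 2, 103411688-103450989, plus strand), had no peak at any of its 7 start sites, in its body or within 5 kb, in 12 of 12 lists. Foxa1, the forkhead factor that opens chromatin for the oestrogen receptor (chromosome 12, 57540628-57546916, minus strand), was called in every list but ranked low. Its values were 6.50, 4.23 and 3.13 in scramble, 0.589, 4.96 and 5.66 in CPT1a knockout, 3.22, 1.97 and 4.16 with acetate, and 7.50, 8.03 and 5.38 in KAT2a knockout. The groups overlapped in all 4 comparisons, and the lowest value was that of CPT1a knockout replicate 1. At the equal depth of 0.55, Foxa1 kept its peak in 1 of 3 scramble lists and in 9 of 9 others, and in lists of equal length in 2 of 3 and 9 of 9. The share of all genes that split in this way in those lists was not computed, so the split cannot be set against genes at large.

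The Foxa1 rank did not pass the test in any of the 4 comparisons, but it depended on one processing choice. When the trend of rank with GC content was removed, CPT1a knockout fell by 16.7 points against scramble (limma adjusted p = 0.00947) and acetate fell by 13.5 points (adjusted p = 0.0378), where the differences without that step were -0.88 and -1.50 points.

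Esr1 encodes the oestrogen receptor alpha (chromosome 10, 4611593-5005614, plus strand). All its promoter peaks lay at the cluster of starts at the 5′ end, where 5 transcripts begin between 4611593 and 4612021. The 5 transcripts that start further inside the gene, near 4710155, 4712651, 4922970 and 4936526, had no promoter peak in any list. Esr1 ranked at 21.8, 28.3 and 52.2 in scramble and at 7.85, 18.3 and 3.49 in CPT1a knockout, and these groups did not overlap. With acetate it ranked at 30.8, 16.6 and 21.8, and in KAT2a knockout at 33.2, 59.7 and 35.8. For CPT1a knockout against scramble the difference was -24.2 points (SE 8.79), which did not pass the test over all genes (limma adjusted p = 0.0932; two-sided exact permutation p = 0.1, the smallest that 3 against 3 allows). Without 1 library it ran from -30.4 to -15.2 points, the latter without scramble replicate 3.

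In the same comparison, 30.9% of all genes had ranks that did not overlap, and of the 5 members Esr1 alone did so. The Esr1 difference passed the threshold when promoters were ranked by -log10 p (-27.2 points, limma adjusted p = 0.00192) and on quantile-normalised log2 fold enrichment (-0.75, adjusted p = 0.046). Under the former setting 3438 of 10777 genes passed in CPT1a knockout against scramble and under the latter 933, against 1079 when ranked by fold enrichment. The mean with acetate, 23.1 ± 7.19 (SD, n = 3), lay between those of CPT1a knockout, 9.88 ± 7.60, and of scramble, 34.1 ± 16.0, and passed the test against neither (adjusted p = 0.705 and 0.493). Its difference from scramble, -11.0 points, ran from -17.16 to -1.998 points without 1 library, and it passed when promoters were ranked by -log10 p (-17.5 points, adjusted p = 0.0322). That setting called 2550 genes in this comparison, against 599 when ranked by fold enrichment. KAT2a knockout stood at 42.9 ± 14.6, which did not differ from scramble beyond the spread (8.77 points, adjusted p = 0.613; 0.389 to 17.8 points without 1 library).

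The body of Esr1 held intronic H3K9ac. A peak with its summit 9846 to 9972 bp after the first start (chr10:4620192-4622471) was called in 12 of 12 lists, as were 31.4% of merged regions, at fold enrichments of 5.25 to 18.8. It stayed in all 12 at equal depth. A weaker one with its summit 20746 to 21019 bp after the start (chr10:4631777-4632867) was called in 3 of 3 scramble, 1 of 3 CPT1a knockout, 0 of 3 acetate and 3 of 3 KAT2a knockout lists, at 5.17 to 9.23-fold. Of 38586 merged regions of the 12 lists, 2.06% were called in 3 of 3 scramble and 0 of 3 acetate lists. At equal depth this second intronic peak was left in 3 of 3 KAT2a knockout lists and in 0 of the other 9, and in lists of equal length in 3 of 3 KAT2a knockout and 1 of 3 scramble lists. The share of all merged regions with these patterns in those lists was not computed, so they cannot be set against regions at large.

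**Figure D4:**
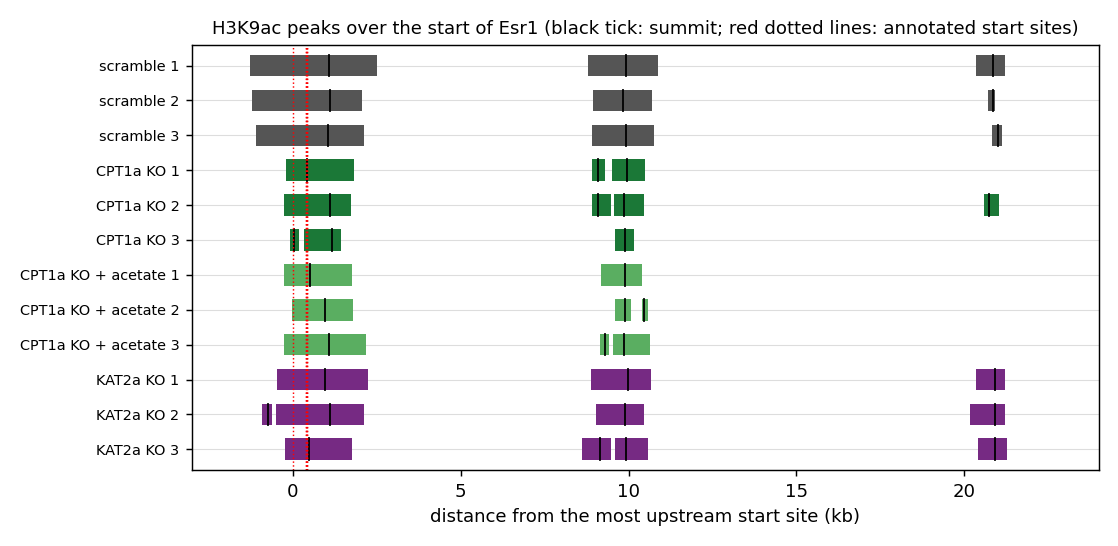
H3K9ac peaks over the first part of Esr1 in each of the 12 libraries (rows), drawn to scale against the distance in kb from the most upstream annotated start site. Black ticks are summits and red dotted lines are annotated start sites. The promoter peak and the intronic peak with its summit at 9846 to 9972 bp are present throughout, whereas the one at 20746 to 21019 bp is missing in 2 CPT1a knockout and all 3 acetate lists.

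Outside its promoter windows, Esr1 was covered by 4014, 2584 and 2818 bp of peaks in scramble and by 1776, 2199 and 561 bp in CPT1a knockout. With acetate the covered length was 1541, 1028 and 2106 bp, and in KAT2a knockout it was 3447, 3145 and 3051 bp. Both CPT1a knockout groups, with and without acetate, thus lay below scramble without overlap (two-sided exact permutation p = 0.1 for each), and KAT2a knockout overlapped scramble. Of 11074 genes with any such peak, 66.6% and 57.0% did not overlap in these 2 comparisons.

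The other members with peaks in their bodies were Krt8, Krt18, Gata3 and Trp63. Krt8 was covered by 3177, 2847 and 2606 bp in scramble and by 1650, 1795 and 1570 bp in CPT1a knockout, and the groups did not overlap, as for 66.6% of genes. Against KAT2a knockout (2084, 1970 and 1609 bp) they did not overlap either, in a comparison where 55.4% of genes did not. The covered length of Krt8 with acetate was 2085, 1891 and 2689 bp, above CPT1a knockout in every library (exact permutation p = 0.1), and 13.5% of genes did not overlap in that comparison. An intronic peak of Krt8 (chr15:102000186-102000668) was called in 3 of 3 scramble lists and in 0 of the other 9, and in none at equal depth. Of merged regions, 2.09% were called in 3 of 3 scramble and 0 of 3 CPT1a knockout lists and 1.61% in 3 of 3 scramble and 0 of 3 KAT2a knockout lists. Gata3 differed without overlap only for CPT1a knockout against scramble, as did 66.6% of genes there, and Krt18 in none of the 4 comparisons.

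Pgr, the progesterone receptor gene and a classic oestrogen target (chromosome 9, 8899833-8968611, plus strand), had no peak in its promoter, body or within 5 kb in any list. Trp63 (chromosome 16, 25683763-25892102, plus strand), whose product p63 maintains the basal layer, had no peak at either of its 2 promoter windows, which serve the long and the N-terminally truncated forms. Single weak intronic peaks were called at chr16:25780700-25781002 in scramble replicate 1 and at chr16:25780291-25780561 in KAT2a knockout replicate 2, and at chr16:25861282-25862046 in scramble replicates 1 and 3 and KAT2a knockout replicates 1 and 3. Their fold enrichments were 3.65 to 5.38, and none was left at equal depth or in lists of equal length.

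The 4 comparisons of promoter rank were made with limma over the 10777 genes called in every list, of which 5 are members. For CPT1a knockout against scramble, 10.0% of genes passed, 4.77% higher and 5.24% lower, and 0 of 5 members passed (1 had an unadjusted p under 0.05, Esr1). For KAT2a knockout against scramble 4.41% passed (1.70% higher and 2.71% lower), in the acetate group 0.0464% over CPT1a knockout (0.0278% higher and 0.0186% lower) and 5.56% over scramble (1.66% higher and 3.90% lower). In each of these 3, 0 of 5 members passed, also at an unadjusted p under 0.05, and 0 of 5 had ranks that did not overlap, against 29.3%, 14.2% and 31.9% of all genes. The median member difference was -3.50, 2.35, 3.69 and -2.50 points in the 4 comparisons, against 0.22, 0.10, -0.48 and 0.15 over all genes.

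Scramble was also compared with the other 9 libraries together by a two-sided exact permutation test over 220 assignments, whose smallest p is 0.00455. The mean Krt8 rank was 86.0 in scramble and 84.5 in the others (exact permutation p = 0.868). For Krt18, Gata3, Esr1 and Foxa1 the differences were 1.33, 6.50, 8.83 and 0.01 points, with exact permutation p-values of 0.964, 0.782, 0.464 and 0.986. Over all genes, 24.9% had a p under 0.05 and 0 of the 5 members did. With the GC trend removed, Foxa1 reached the smallest p, 0.00455.

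In order of mean rank over the 12 libraries the members stood as Gata3 (94.7 ± 17.0, SD), Krt8 (84.8 ± 11.4), Krt18 (53.4 ± 27.4), Esr1 (27.5 ± 16.5) and Foxa1 (4.61 ± 2.20). Neighbours in this order kept it in 11, 11, 10 and 11 of 12 libraries. The gap between Gata3 and Krt8, 9.89 ± 22.2 points, and that between Krt18 and Esr1, 25.9 ± 30.0 points, were smaller than their SD over libraries. Outside 1 Mb, the gene whose ranks followed the member most closely over the 12 libraries was Mff for Krt8 (Pearson r = 0.955), Pfdn1 for Krt18 (0.818), Msh5 for Gata3 (0.968), Fam110c for Esr1 (0.925) and Rnf32 for Foxa1 (0.850). Each is the highest over all other genes tested, from 12 points that share libraries and depth, and is given as a description.

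Width was the readout in which members passed the test, and it is also the one in which genes at large moved. Against scramble, 62.7% of genes passed in CPT1a knockout, 62.2% narrower and 0.529% wider, with a median change over all genes of -0.54 on the log2 scale. For KAT2a knockout against scramble 22.1% passed, 21.3% narrower and 0.761% wider (median -0.32), and for acetate against scramble 33.6%, with 33.1% narrower and 0.529% wider (median -0.38). Of the 5 members, 3, 1 and 1 passed in these comparisons. For acetate against CPT1a knockout limma called 0 of 10777 genes (485 at an unadjusted p under 0.05; median 0.16). Widths did not overlap for 66.5%, 48.7% and 55.4% of genes in the 3 comparisons with scramble and for 9.94% in that of acetate with CPT1a knockout. Scramble depths lay at or above most others, and the part of depth in these widths was not tested.

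The Esr1 promoter peak was 3779, 3269 and 3223 bp wide in scramble, 2028, 1989 and 1373 bp in CPT1a knockout, 2024, 1816 and 2432 bp with acetate and 2700, 2899 and 1995 bp in KAT2a knockout. All 9 non-scramble values lay below the 3 scramble values (two-sided exact permutation p = 0.00455), and 58.6% of genes had an exact p under 0.05 in this comparison. Esr1 was narrower in CPT1a knockout (log2 difference -0.95, SE 0.191, limma adjusted p = 0.00173) and with acetate against scramble (-0.72, adjusted p = 0.0163). The former passed without any single library (adjusted p 0.00155 to 0.0101). The latter was lost without scramble replicate 1 (-0.65, adjusted p = 0.0694) or acetate replicate 2 (-0.62, adjusted p = 0.0768), and KAT2a knockout did not pass (-0.45, adjusted p = 0.0939) except without CPT1a knockout replicate 3 (adjusted p = 0.043).

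Krt18 was 6232, 2721 and 3118 bp wide in scramble and 2437, 2310 and 1702 bp in CPT1a knockout, which was narrower (-0.82, limma adjusted p = 0.0142). The first scramble value was the peak joined to its upstream neighbour, and without that library the difference was -0.46 (adjusted p = 0.0759); without CPT1a knockout replicate 3 it was -0.66 (adjusted p = 0.0706). With acetate the widths were 2705, 2249 and 2960 bp and in KAT2a knockout 2449, 2726 and 1969 bp, and neither group passed against scramble (log2 differences -0.52 and -0.67, limma adjusted p = 0.121 and 0.07002), and both differences moved with single scramble libraries. Without replicate 2 both passed (-0.75 and -0.90, adjusted p = 0.0405 and 0.0268), and without replicate 1, the joined peak, they shrank to -0.15 and -0.30 (adjusted p = 0.599 and 0.329). With peaks within 500 bp merged both passed (-0.82 and -0.87, adjusted p = 0.0177 and 0.0161).

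Foxa1 ran the other way. Its peaks covered 1105, 1180 and 590 bp in scramble, 1772, 1634 and 1165 bp in CPT1a knockout, 1419, 893 and 1305 bp with acetate and 1903, 1789 and 1396 bp in KAT2a knockout. It was wider in CPT1a knockout (0.71 on the log2 scale, limma adjusted p = 0.0412) and in KAT2a knockout (0.88, adjusted p = 0.0419), and only in the latter did the groups not overlap, as for 48.7% of genes. It was 1 of the 57 and 1 of the 82 genes called wider. Both calls were close to the threshold: they were lost in 5 and 8 of the 12 fits that left out 1 library, and without scramble replicate 3 the differences were 0.39 (adjusted p = 0.199) and 0.56 (adjusted p = 0.153). Merging peaks within 500 bp also ended both (0.60 and 0.78, adjusted p = 0.0959 and 0.0553). In scramble the Foxa1 H3K9ac was split in 2 separate short peaks in replicates 1 and 2 and was a single 590 bp peak in replicate 3. It was also split in 2 peaks in CPT1a knockout replicates 2 and 3, acetate replicate 2 and KAT2a knockout replicates 1 and 2.

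Krt8 widths were 7182, 3436 and 3545 bp in scramble, 5934, 6250 and 3215 bp in CPT1a knockout, 5977, 5409 and 7172 bp with acetate and 3772, 5837 and 5313 bp in KAT2a knockout. They did not differ by the test in any comparison (adjusted p 0.202 to 0.777), and the values within a group depended on whether a gap in the block was closed. When peaks within 500 bp of each other were merged, Krt8 was narrower in CPT1a knockout (-0.428, limma adjusted p = 0.00674) and in KAT2a knockout (-0.365, adjusted p = 0.0276), the opposite sign to the unmerged 0.15 and 0.14.

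**Figure D5:**
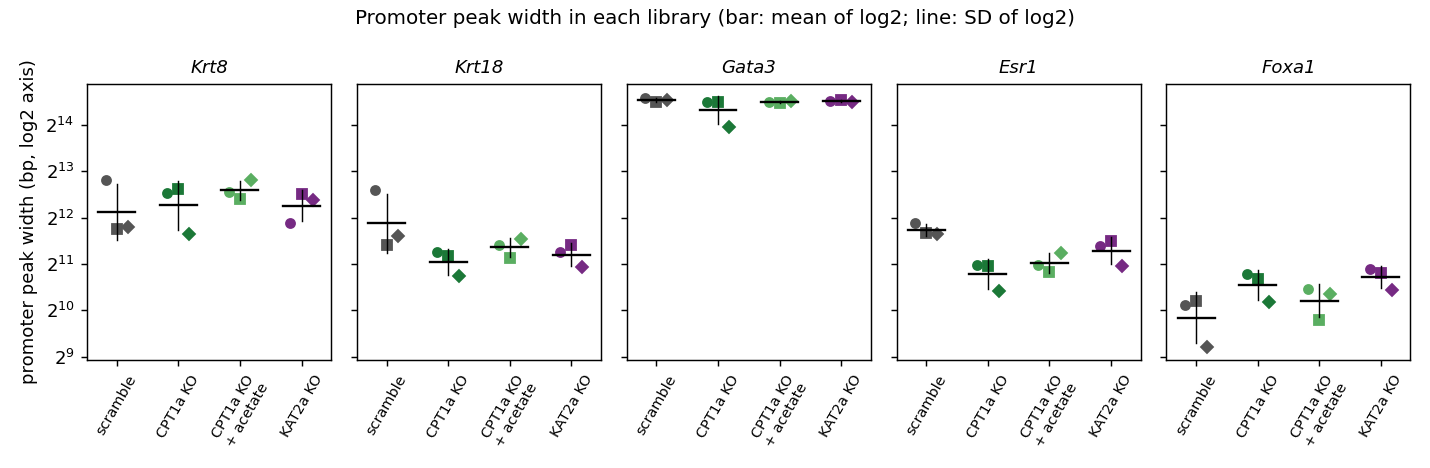
Summed width in bp (y axis, log2 scale) of the peaks touching the promoter of the 5 genes called in all 12 lists, by group (x axis). Symbols are libraries, bars are means of the log2 widths and lines are their SD over 3 libraries. Esr1 is narrower in all 9 non-scramble libraries, Foxa1 is widest in CPT1a and KAT2a knockout, and Gata3 stays near 23 kb except in 1 CPT1a knockout library.

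Wider lists of 38 luminal and 37 basal genes were read in the same way. Of the luminal list 20 genes had a promoter peak in all 12 lists, 2 in some and 16 in none, and of the basal list 17, 4 and 16. Over all protein-coding genes 49.5% were called in all 12 lists and 45.1% in none, so both lists were close to genes at large. They differed less than the members, where 5 of 7 luminal and receptor genes and 0 of 3 basal genes were called throughout. The luminal genes called throughout included the claudins Cldn3, Cldn4 and Cldn7, which seal epithelial junctions, Xbp1 and Stat5a; the milk protein genes Csn2, Csn3, Wap and Lalba were called in none. The basal genes called throughout included the integrins Itga6, Itgb1 and Itgb4, which anchor cells to the basement membrane, and Vim, while the contractile genes Acta2, Myh11, Cnn1 and Tagln and the keratins Krt17, Krt15 and Krt6a were called in none. Mylk, also a contractile gene, was called in 4 libraries, Egfr in 5 and Zeb1 in 9.

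In CPT1a knockout against scramble, where 4.77% of all genes rose and 5.24% fell, 2 of the 20 luminal genes tested rose and 2 fell, and 0 of the 17 basal genes rose and 3 fell. In KAT2a knockout, against 1.70% and 2.71% of all genes, 3 luminal genes rose and 0 fell, and 0 basal genes rose and 1 fell. In acetate over CPT1a knockout, against 0.0278% and 0.0186%, 1 luminal gene rose and no basal gene passed. In acetate over scramble, against 1.66% and 3.90%, 1 luminal gene rose and 1 fell, and 0 basal genes rose and 2 fell. In this order, the median differences were 0.29, 8.93, 1.19 and 0.47 points in the luminal list and -5.95, -0.65, 2.46 and -3.35 points in the basal list, against 0.22, 0.10, -0.48 and 0.15 over all genes.

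Tfap2a, which encodes the AP-2 alpha factor of epithelial development, was the luminal gene called in both CPT1a knockout comparisons. It ranked at 99.9 ± 0.0799 in scramble and fell to 55.2 ± 10.8 in CPT1a knockout (-44.7 points, limma adjusted p = 0.00155), a call that no left-out library removed. With acetate it stood at 99.3 ± 0.894, a rise of 44.0 points over CPT1a knockout (adjusted p = 0.0286). The latter call was lost in 8 of the 12 fits without 1 library, with differences of 40.3 to 50.2 points and adjusted p-values up to 0.227. It was also lost with the GC trend removed (43.2 points, adjusted p = 0.0956), on quantile-normalised log2 fold enrichment (1.02, adjusted p = 0.0712), with only the 2 groups in the fit (adjusted p = 0.421) and when promoters were ranked by -log10 p, where the difference was 13.3 points (adjusted p = 0.111).

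Grhl2, a Grainyhead factor that maintains epithelial junctions, ranked at 48.6 ± 22.0 in scramble and rose by 35.9 points in CPT1a knockout (limma adjusted p = 0.0327), by 50.04 in KAT2a knockout (0.0143) and by 48.5 with acetate against scramble (0.0117). Epcam, an epithelial adhesion molecule, rose by 18.3 points in CPT1a knockout (0.0455) and by 34.6 in KAT2a knockout (0.00442). Cldn7 rose from 0.957 ± 1.09 to 23.2 ± 1.10 in KAT2a knockout (adjusted p = 7.49e-05). Its scramble ranks lay near the bottom of the scale. Apart from the fits without 1 library, it was fitted in 8 alternative settings, against 9 for Epcam. Stat5a fell by 12.7 points in CPT1a knockout (0.0273), and Myb fell by 7.87 points with acetate against scramble (0.0380). After removal of the trend with GC content, the rise of Epcam in CPT1a knockout was 10.7 points (adjusted p = 0.379) and the fall of Myb was -1.40 points (adjusted p = 0.815), and neither passed. Leaving out 1 library ended the 3 calls of Grhl2 in 4, 1 (KAT2a knockout replicate 1) and 1 (acetate replicate 2) of 12 fits, with adjusted p-values up to 0.111, 0.0515 and 0.0562. It ended those of Epcam in 9 and 0 fits, of Stat5a in 5, of Myb in 6 and of Cldn7 in 0, with adjusted p-values up to 0.139 for Epcam, 0.0908 for Stat5a and 0.121 for Myb.

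In the basal list, Sparc, a matrix-binding glycoprotein, fell from 33.8 ± 9.59 in scramble to 7.44 ± 0.465 in CPT1a knockout (limma adjusted p = 0.00389), 7.36 ± 3.63 in KAT2a knockout (0.00675) and 13.2 ± 4.23 with acetate (0.0166). Perp, a desmosome protein, fell by 43.8 points in CPT1a knockout (0.0185) and by 56.0 with acetate (0.00864). For acetate against CPT1a knockout no basal gene passed, and the largest differences were those of Itgb4 (27.2 points, adjusted p = 0.605) and Itga6 (23.9 points, 0.678), which ran from 14.7 to 45.9 and from 14.4 to 40.0 points without 1 library. Leaving out 1 library ended the calls of Sparc in 0, 0 and 2 of 12 fits (acetate replicates 1 and 3, adjusted p up to 0.0767) and of Perp in 3 and 0 (up to 0.062). The comparisons with scramble share its 3 libraries.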

How the data were processed

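H3K9ac ChIPmentation of 4T1 spheroids was deposited as 12 narrowPeak lists; the 12 input samples were not analysed here. The study's methods give BWA and mm10, while the labels' processing notes name Bowtie2 and MACS2 with mm10; caller settings are not given in the sources used here, and labels and methods name different antibody catalogue numbers. Per the file layout, the authors' deposited column 7 is a fold enrichment (a ratio to local background), columns 8 and 9 are the deposited -log10 p and -log10 q, and column 5 is the deposited score. The lists were called by the authors per library, and the values are not scaled between libraries.

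Peaks on chromosomes 1 to 19 and X were overlapped (at least 1 bp) with 1 kb windows around each TSS. A gene's rank was the percentile of its highest fold enrichment among the 10777 genes called in all 12 lists, and its width was the log2 summed length of peaks touching a window. Ranks and log2 widths were fitted over all 10777 genes and all 12 libraries in limma 3.58.1 (R 4.3.3), with Benjamini-Hochberg adjustment over all genes and a threshold of 0.05; single values used exact permutation tests, whose smallest p is 0.1 for 3 against 3. The calling depth was recovered by inverting the fold and p of MACS2 for peaks with a -log10 p under 60, and lists at an equal depth of 0.55 held the peaks whose -log10 p was then still 5 or more. The recovery of depth and the limma fits were tested on simulated data, and the thinning to equal depth was not. Members and lists were chosen with earlier results of these data known. All 10 members are described; from the wider lists, genes past the rank test were named by largest difference, up to 3 per direction and comparison, or 2 where none passed. A gene that this rule would name is not reported here.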

Additional observations from a re-analysis of the deposited data

How the results depend on the processing

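Differences of the 5 tested members kept their call in 415 of 420 alternative values for rank (5 gained a call) and in 352 of 380 for width (21 lost, 5 gained and 2 reversed); 31 and 10 changed sign, and of these only the 2 reversed values passed the test. The reversed values were those of Krt8 width with peaks within 500 bp merged, -0.428 in CPT1a knockout and -0.365 in KAT2a knockout, each against scramble. Counts of genes past the threshold moved more. For rank, limma called 1079, 475, 5 and 599 genes in, respectively, CPT1a knockout over scramble, KAT2a knockout over scramble, acetate over CPT1a knockout and acetate over scramble. Ranking by -log10 p gave 3438, 2327 and 2550 in the 3 comparisons with scramble. With only the 2 groups compared the first 3 gave 242, 0 and 0 (2667, 2355 and 771 at an unadjusted p under 0.05). Quantile-normalised fold enrichment gave 286 in the second and 0 in the third (925 unadjusted), removal of the GC trend gave 0 in the third (972 unadjusted), and a -log10 q of at least 5 gave 2. Without 1 library, the 4 counts ran from 487 to 1125, 140 to 556, 0 to 17 and 151 to 725. For width, limma called 6758, 2378, 0 and 3624 genes. Merging gave 4869 and 5483 for KAT2a knockout and acetate over scramble, and the third gave 1 with only the 2 groups compared and 1 with a 500 bp window. Without 1 library, the counts ran from 4531 to 7085, 65 to 3834, 0 to 2 and 521 to 4977. In scramble against the other 9 libraries, 0 of 5 members had an exact permutation p under 0.05, 1 (Foxa1) with the GC trend removed, and 0 to 0 without 1 library. The counts of members called in all 12 lists and of members with peaks in the gene body stayed at 5 and 5 without any 1 library. With the replicate block, the rank counts were 945, 338, 0 (970 unadjusted) and 455 and the width counts 6818, 2315, 0 (540 unadjusted) and 3586. It ended rank calls of Epcam (CPT1a knockout over scramble, adjusted p = 0.0702), Tfap2a (acetate over CPT1a knockout, 0.0834) and Myb (acetate over scramble, 0.0636). A -log10 q of at least 5 also ended the call of Myb (0.0528). With only the 2 groups compared, rank calls of Grhl2, Epcam, Stat5a and Perp were lost in CPT1a knockout over scramble, of Grhl2, Epcam, Cldn7 and Sparc in KAT2a knockout over scramble, and of Sparc in acetate over scramble. On quantile-normalised log2 fold enrichment, calls of Grhl2 (limma adjusted p = 0.0564) and Stat5a (0.0793) were lost in CPT1a knockout over scramble. That of Sparc (0.0939) was lost in acetate over scramble. Same-numbered libraries were not paired in the data: the 12 correlations of their deviations from the group means ran from -0.04 to 0.07, and in the 4 comparisons 1, 0, 2 and 2 of 6 libraries correlated best with their own number. Peak lists cannot show H3K9ac below the caller's threshold, and a missing peak is not absence of the mark. The cause of these shifts was not tested.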
